A study of Mus musculus with 3 samples.

Results

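The cells described here were 103 barcodes of a mouse spleen preparation that carried many transcripts of complement component C1q, the gene set usually read as a mark of tissue macrophages. They were proposed as splenic red pulp macrophages and were chosen by their own RNA counts, so the values that chose them are given as a description. A barcode had to hold 500 or more genes, at most 10% mitochondrial unique molecular identifiers (UMIs, counts of single captured RNA molecules) and a leading hashtag count at least 5 times the second. It also had to hold 8 or more UMIs of C1qa, C1qb and C1qc together, at most 1 of Siglech, 0 of Xcr1 and Clec9a, at most 1 of Ccr7 and Fscn1, and at most 1 of Cd79a. Of 38717 barcodes, 36904 passed the filters on genes and mitochondrial UMIs, 21547 of these had 1 leading hashtag, and 103 met the whole rule. They are called C1q-high cells below, because the marker check that follows fitted the proposed name in part.

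All groups came from C57BL/6 mice, whose spleen cells were prepared to enrich dendritic cells: a density gradient, a sort for cells without GFP, and a magnetic kit that removes other cells. Macrophages were not the target of that preparation, so the cells left in it need not represent those of the intact spleen. Leukemia-bearing mice and WT mice had been given panobinostat, an inhibitor of histone deacetylases, or vehicle for 2 days, and 6 hashtagged samples were pooled into 1 droplet capture. The hashtag names give 2 leukemia vehicle samples (AML_D5W1 and AML_D5W2), 2 leukemia panobinostat samples (AML_LBH1 and AML_LBH2), 1 WT vehicle sample (WT D5W) and 1 WT panobinostat sample (WT LBH), with D5W read as the vehicle arm and LBH as the panobinostat arm. The labels used here do not name the leukemia's driver or say whether the hashed samples were separate animals. The C1q-high cells had a median of 5796 gene UMIs (841 to 26199) and 734227 in all, from 26849 in leukemia vehicle 2 to 332557 in WT vehicle, against a median of 6760 (6759.5) in the 21444 other cells with 1 leading hashtag.

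Red pulp macrophages line the cords of the spleen, where they engulf aged red blood cells. They break down the heme with heme oxygenase 1 (Hmox1) and release the iron through ferroportin (Slc40a1). Spic, a transcription factor of the ETS family, is known for its part in their development, and Vcam1, an adhesion molecule, is abundant on their surface. C1q, made of 3 chains encoded by C1qa, C1qb and C1qc, starts the classical complement pathway and is made by many tissue macrophages and by some dendritic cells.

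The 3 C1q genes lie beside each other on the minus strand of chromosome 4 in GRCm38 (C1qb at 136880129 to 136886187, C1qc at 136889804 to 136893065, C1qa at 136895917 to 136898803), with 2852 bases between C1qc and C1qa. Promoter sequences from RefSeq were found for 5 of the 9 genes looked up. Those of C1qb and C1qc are shown because these genes chose the cells, that of Spic because it was a proposed marker, and those of Lyz2 and its neighbour Lyz1 because Lyz2 divides them. Each run is the 250 bases before the RefSeq start site in GRCm38.p6, 5′ to 3′ on the minus strand, and capitals mark AGGAAGT or its reverse complement ACTTCCT, the letters around the core bound by ETS factors such as PU.1. The positions are chr4:136886201-136886450, chr4:136892915-136893164, chr10:88683024-88683273, chr10:117282273-117282522 and chr10:117292869-117293118, in the order printed.
C1qb: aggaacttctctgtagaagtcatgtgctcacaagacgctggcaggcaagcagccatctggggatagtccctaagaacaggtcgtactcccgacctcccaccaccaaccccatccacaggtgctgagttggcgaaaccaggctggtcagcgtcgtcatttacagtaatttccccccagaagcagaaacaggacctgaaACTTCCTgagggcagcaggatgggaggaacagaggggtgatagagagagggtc
C1qc: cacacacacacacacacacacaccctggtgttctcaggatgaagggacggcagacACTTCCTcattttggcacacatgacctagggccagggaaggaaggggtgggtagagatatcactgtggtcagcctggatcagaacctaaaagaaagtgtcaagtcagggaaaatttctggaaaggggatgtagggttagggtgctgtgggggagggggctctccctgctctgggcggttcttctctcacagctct
Spic: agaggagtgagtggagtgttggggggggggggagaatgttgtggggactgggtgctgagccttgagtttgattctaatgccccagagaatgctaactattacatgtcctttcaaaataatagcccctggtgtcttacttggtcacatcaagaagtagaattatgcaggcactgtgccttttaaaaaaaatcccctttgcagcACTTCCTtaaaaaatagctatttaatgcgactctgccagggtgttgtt
Lyz2: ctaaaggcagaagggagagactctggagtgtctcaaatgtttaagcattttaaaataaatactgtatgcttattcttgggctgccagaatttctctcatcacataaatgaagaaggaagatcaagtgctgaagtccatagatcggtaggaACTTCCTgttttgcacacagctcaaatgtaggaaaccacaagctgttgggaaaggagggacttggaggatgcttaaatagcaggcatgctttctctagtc
Lyz1: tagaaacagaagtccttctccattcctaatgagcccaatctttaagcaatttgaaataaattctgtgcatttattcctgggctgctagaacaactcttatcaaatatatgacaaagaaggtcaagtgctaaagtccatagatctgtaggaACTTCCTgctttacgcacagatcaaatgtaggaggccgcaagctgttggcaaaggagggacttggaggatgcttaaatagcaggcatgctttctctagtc

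Each of these 5 windows held the motif once, on the opposite strand to the gene, with its first base at position -53 in C1qb, -195 in C1qc, -48 in Spic and -100 in Lyz2 and Lyz1, counted back from the start site. Of all 32851 promoters in the table, 7.69% held it on either strand in the same 250 bases. The letters were chosen after the sequences had been seen, and a match is a description and not evidence of binding. Lyz2 and Lyz1, a pair of lysozyme genes 5476 bases apart on chromosome 10 (117277331 to 117282321 and 117287797 to 117292868), had the same base at 152 of the 250 positions (60.8%) when set side by side without gaps. Reads from such close copies may have been split between them by the counting.

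Of the 198 barcodes with 1 leading hashtag and 8 or more C1q UMIs, 103 (52.0%, exact 95% binomial interval 44.8 to 59.2%) were kept. Xcr1 or Clec9a, genes of conventional type 1 dendritic cells, excluded 69, Ccr7 or Fscn1, genes of mature dendritic cells, excluded 41, Siglech excluded 18 and Cd79a excluded 3, and a barcode could fail more than 1 limit. The median C1q count of the kept cells was 24 UMIs (highest 200). Just inside the limit, the 13 cells with 8 or 9 C1q UMIs included 5 with Vcam1, 6 with Hmox1, 3 with Spic and 8 with Lyz2. Just outside it, the 9 cells with 6 or 7 included 4 with Vcam1, 6 with Hmox1, 6 with Spic and 5 with Lyz2. Cells on both sides of the limit held these markers. A further 45 barcodes passed the gene part of the rule without 1 leading hashtag and belong to no sample. Among all other cells 4.30% held at least 1 C1q UMI.

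C1q levels, given as CPM (a gene's UMIs as a share of all UMIs summed over a sample's C1q-high cells, scaled to the usual CPM unit), differed little between the WT samples and more between the leukemia samples, which rest on 3 to 6 cells each. C1qa stood at 3834 and 1862 CPM in the leukemia vehicle pair and at 2291 (2290.5) and 1617 in the panobinostat pair, with WT vehicle at 2565 and WT panobinostat at 2303. C1qb stood at 3969 and 1006, at 2716 and 2094, at 2818 and at 2033 CPM in the same order. C1qc ran from 521 CPM in leukemia vehicle 2 to 1850 (1849.9) in leukemia vehicle 1. Leukemia vehicle 1 was the highest and leukemia vehicle 2 the lowest for C1qb and C1qc, so the vehicle pair spans the panobinostat pair. All other cells stood at 9.89, 9.62 and 5.04 CPM for C1qa, C1qb and C1qc.

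The genes of heme and iron handling were present in part of the cells. Hmox1 (chromosome 8, 75093621 to 75100589) had a UMI in 51 of 103 cells and in 6.53% of other cells. Among leukemia samples its level was 67.3 and 37.2 CPM with vehicle and 0 and 459.6 with panobinostat, and among WT samples 262 with vehicle and 532 with panobinostat, from 2, 1, 0, 27, 87 and 136 UMIs. A count of 0 in 30561 UMIs allows up to 3 counts, so that sample is not shown to lack it. Leukemia panobinostat 2 and the WT samples were high and the other 3 samples low.

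Slc40a1 (chromosome 1, 45908068 to 45926523) had a UMI in 38 of 103 cells and in 1.04% of other cells. Leukemia samples stood at 33.6 and 112 CPM with vehicle and at 0 and 221 with panobinostat, and WT samples at 186 with vehicle and 242 with panobinostat. The samples ranked much as for Hmox1, with leukemia panobinostat 1 at 0 for both genes. Spic (chromosome 10, 88674772 to 88685015) had a UMI in 47 cells and in 3.44% of other cells, at 67.3 and 37.2, 98.2 and 102, 165 and 176 CPM in the same order. All 4 leukemia samples lay below both WT samples for Spic, but with 1 to 6 UMIs each.

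Vcam1 (chromosome 3, 116109949 to 116129688) was the most widely detected of the 4 non-C1q markers, with a UMI in 66 of 103 cells against 10.8% of other cells. With vehicle the leukemia samples stood at 639 and 261 CPM and the WT sample at 412; with panobinostat they stood at 32.7 and 306, and at 454. The leukemia panobinostat 1 value rests on 1 UMI. Of the 103 cells, 17 held Vcam1, Hmox1, Spic and Slc40a1 together, 65 held 1 to 3 of them and 21 (20.4%) held none. In the other cells 82.0% held none and 0.182% held all 4.

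**Figure D1:**
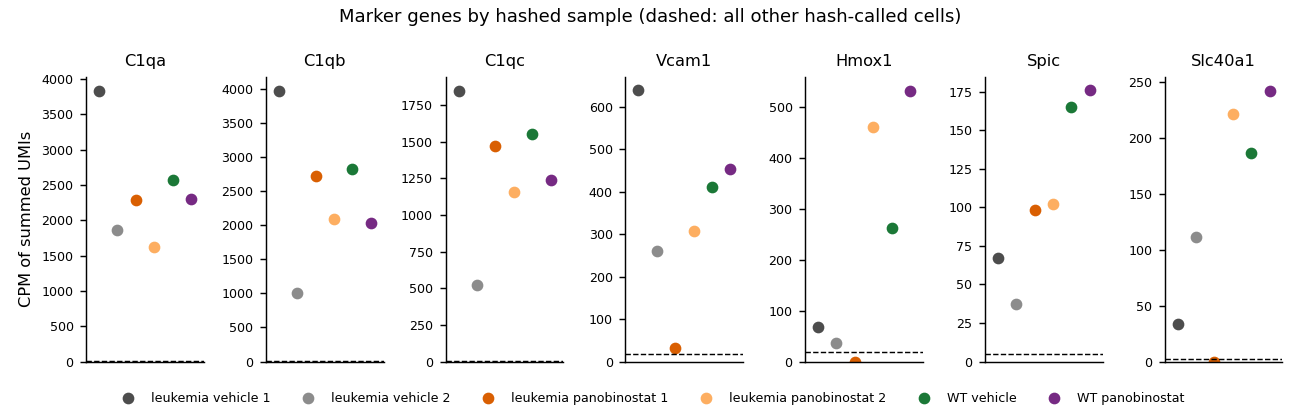
CPM of 7 marker genes summed over the C1q-high cells of each hashed sample (vertical axes, linear and different for each gene), 1 point per sample, with the level of all other hash-called cells dashed. Hmox1 and Slc40a1 are at 0 in leukemia panobinostat 1 and near 460 and 221 CPM in leukemia panobinostat 2, while C1qa is at 1617 CPM or more in all 6.

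Other genes known from red pulp macrophages were sparser. Cd5l, a scavenger protein secreted by macrophages, had a UMI in 20 of 103 cells, Adgre1, the gene of the F4/80 antigen, in 23, and Cd163, the receptor for haemoglobin bound to haptoglobin, in 7. Timd4, a receptor for dying cells, was found in 9 cells, and 57.9% of its UMIs came from 1 cell. Csf1r, the receptor that keeps macrophages alive, was found in 76 and Axl, a receptor used in clearing dead cells, in 50. All 22 genes of the red pulp macrophage list had a UMI, and their sum was 8284 CPM (6071 to 11234 over the 6 samples) against 623 in other cells. C1qa and C1qb, which took part in choosing the cells, gave 1771 and 1808 of its 6082 UMIs. The other 20 genes summed to 3409 CPM (1898 to 3541 in leukemia samples, 3272 and 3757 in WT) against 603 in other cells. The marginal zone macrophage list came to 324 CPM, with Cd209b in 1 cell, Siglec1 in 3 and Marco in 11. With Hmox1 in 51, Spic in 47 and Slc40a1 in 38 of the 103 cells, the data fitted the proposed label in part, and no other macrophage name is given.

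Markers of other cells were read in the same way. No UMI of Cd3d, Cd3e, Cd3g, Ly6g, S100a9 or the 6 fibroblast genes was found, and the 11 neutrophil genes had 1 UMI in all. The 12 measured erythroid genes summed to 13226 CPM, against 15791 in other cells, and ranged from 706 CPM in leukemia vehicle 1 to 38698 in leukemia vehicle 2, with all 12 detected. In 11 of the 103 cells Hbb-bs, a haemoglobin chain, had more than 50 UMIs. The source of these transcripts was not tested. The 12 genes of conventional type 2 dendritic cells (cDC2) summed to 816 CPM against 513 in other cells, and the 12 monocyte genes to 688 against 1412.

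Lyz2, the lysozyme of macrophages and monocytes, divided the cells by a gap: 27 cells held 0 to 2 Lyz2 UMIs and 76 held 13 to 820. The division was noticed in these data, so it carries no test. In leukemia, Lyz2-poor cells numbered 0 of 3 and 1 of 3 with vehicle and 0 of 4 and 4 of 6 with panobinostat. In WT they numbered 12 of 55 (21.8%, exact 95% binomial interval 11.8 to 35.0%) with vehicle and 10 of 32 (31.3%, 16.1 to 50.01%) with panobinostat. Both kinds of cell occurred in both WT samples, and the intervals of their shares overlapped. They had similar depth, with medians of 5328 UMIs in Lyz2-poor and 6056 in Lyz2-rich cells, but unlike C1q counts, with medians of 13 (highest 38) and 33 (highest 200). After each of the 84 cells deep enough (24 Lyz2-poor, 60 Lyz2-rich) was thinned to 2000 UMIs, Lyz2-poor cells held at most 1 Lyz2 UMI and Lyz2-rich cells a median of 47, with the lowest at 1.

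**Figure D2:**
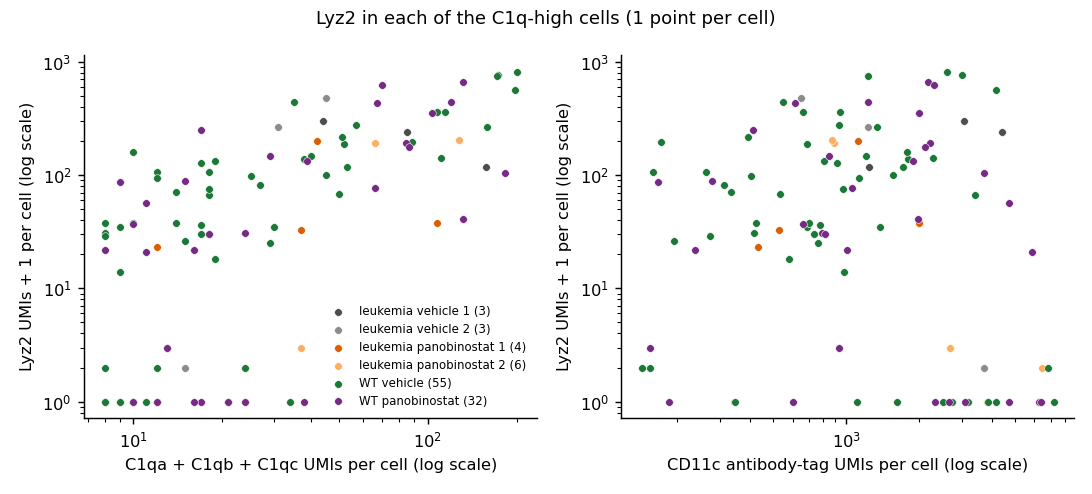
Lyz2 UMIs plus 1 (vertical axes, log scale) against C1q UMIs (left) and CD11c antibody-tag UMIs (right) in each of the 103 cells, coloured by hashed sample. No cell lies between 2 and 13 Lyz2 UMIs, and the cells under the gap have at most 38 C1q UMIs while many of them have high CD11c tags.

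Some heme and iron genes, Hmox1, Slc40a1 and Trf, were higher in Lyz2-poor cells, while the list as a whole went both ways, as given below by count. Hmox1 stood at 685 CPM in Lyz2-poor and 203 in Lyz2-rich cells (22 of 27 and 29 of 76 cells with a UMI), a ratio of 0.296 Lyz2-rich over Lyz2-poor. Slc40a1 stood at 398 and 106 CPM (20 and 18 cells) and Trf, the iron carrier transferrin, at 213 and 67.5. Cd5l stood at 167 and 13.5 CPM, with 36 of its 43 UMIs in Lyz2-poor cells. All 9 Cd163 UMIs were in 7 Lyz2-poor cells, and 18 of the 19 UMIs of Itgad, an integrin known from red pulp macrophages, were in Lyz2-poor cells too. Vcam1 (496 and 369 CPM) and Axl (176 and 129) differed by less than 2-fold, and Spic ran the other way (78.7 and 183). At 2000 UMIs a cell, Hmox1 was detected in 66.7% of Lyz2-poor and 25% of Lyz2-rich cells (81.5 and 38.2% at full depth), Slc40a1 in 54.2 and 13.3% (74.1 and 23.7%) and Cd5l in 25 and 3.33% (63.0 and 3.95%).

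The gene that stood furthest to the Lyz2-poor side was Slpi, a secreted inhibitor of neutrophil proteases (chromosome 2, 164354070 to 164389095), with 162 UMIs in 23 of 27 Lyz2-poor cells and 2 UMIs in 2 of 76 Lyz2-rich cells. Nr4a1, an immediate early nuclear receptor, stood at 352 CPM in Lyz2-poor and 30.9 in Lyz2-rich cells, Cd7 at 315 and 30.9, and Fcna, a ficolin that recognises sugars on microbes, at 306 and 61.7. Tbc1d4, Ccnd1 (cyclin D1), Rel and Mef2c followed the same side. The mannose receptor gene Mrc1 stood at 144 and 15.4 CPM. Genes known from dendritic cells were also found there: Wdfy4 stood at 199 and 32.8 CPM, and Flt3, the receptor for a dendritic cell growth factor, had a UMI in 9 of 27 and 6 of 76 cells, while Zbtb46 had one in 2 and 3. The cDC2 marker list, which includes Cd7, summed to 1005 CPM in Lyz2-poor and 737 in Lyz2-rich cells. The cDC1 list, which includes Wdfy4, summed to 486 and 239, with Xcr1 and Clec9a at 0 by the rule. Lists of mature dendritic cells (144 and 502 CPM) and plasmacytoid dendritic cells (338 and 785) ran the other way. The rule had limited Ccr7, Fscn1 and Siglech of these lists. The monocyte list summed to 1260 (1259.7) and 449.5. Most of the monocyte sum in Lyz2-poor cells came from Plac8 (773 and 176 CPM) and Nr4a1. Ccr2 of the same list ran the other way (4.63 and 118). Whether a second cell in the droplet added the dendritic cell or monocyte genes was not tested. Without the barcodes that held a UMI of T cell, erythroid, B cell, neutrophil or cDC2 marker genes, 15.1% of 73 cells were Lyz2-poor in place of 26.2%.

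On the Lyz2-rich side, Lyz1 stood at 1669 CPM in Lyz2-rich and 9.26 in Lyz2-poor cells, in 29 of 76 and 1 of 27 cells. Cxcl9, a chemokine induced by interferon gamma, stood at 548 and 4.63 CPM, Pla2g2d, a secreted phospholipase, at 677 and 13.9, and C3 and Cfb, the central component and factor B of complement, at 536 and 18.5 and at 201 and 4.63. Cx3cr1, the fractalkine receptor, stood at 316 and 9.26 CPM and Apoe, a lipid carrier, at 12066 and 1098. Cd63, a protein of late endosomes, stood at 880 (879.8) and 55.6 CPM and Fabp5, a fatty acid binding protein, at 1200.1 and 69.5. H2-M2, a nonclassical MHC class I gene, stood at 370.4 and 13.9 CPM but came from 22 of the 76 cells.

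**Figure D3:**
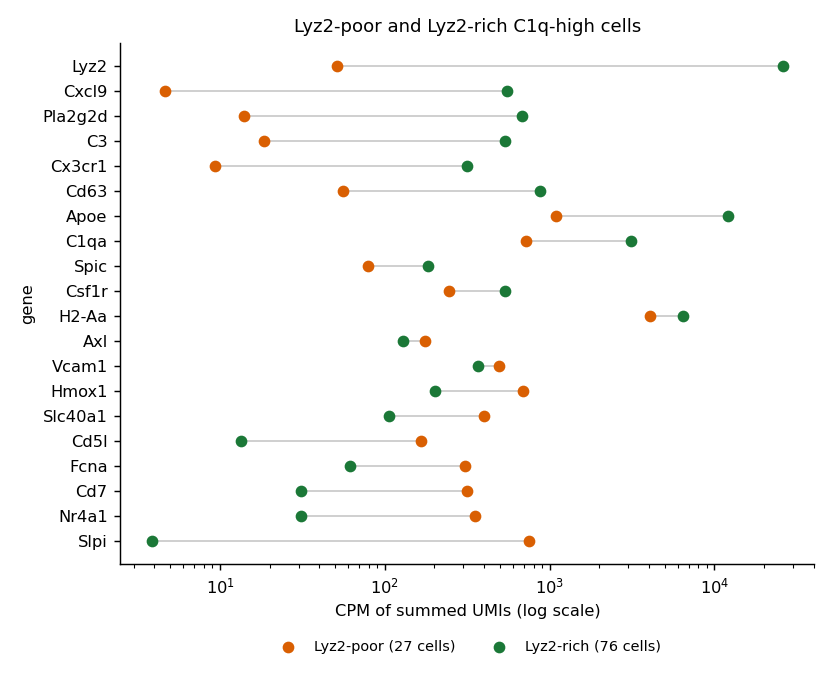
CPM of 20 genes (horizontal axis, log scale) in the 27 Lyz2-poor and the 76 Lyz2-rich cells, 1 point for each kind of cell. Slpi, Nr4a1, Cd7, Fcna, Cd5l, Slc40a1 and Hmox1 are higher in the Lyz2-poor cells, and Lyz2, Cxcl9, Pla2g2d, C3, Cx3cr1, Cd63 and Apoe in the Lyz2-rich cells.

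Across all 1801 genes with 50 or more UMIs, 10.8% were higher and 7.72% lower by 2-fold in Lyz2-rich than in Lyz2-poor cells, with a median log2 ratio of -0.10. Of 23 lysosome and cathepsin genes 15 were higher and 0 lower (median log2 ratio 1.37). The 15 include Lyz2, which made the division, and its close copy Lyz1. Also among them were Ctsd (1273 and 454 CPM) and Ctsc (498 and 153), which digest proteins in lysosomes, and Hexa (324 and 130). Of 7 complement genes 5 were higher, 3 of them C1q chains that took part in the rule. Of 10 interferon-stimulated genes 6 were higher and 0 lower (median 1.36), and of 9 cytokine receptor genes 6 (median 1.13). Only 10 of 44 and 9 of 18 listed genes had enough UMIs. The minimum of 50 is on the sum of both groups, of which Lyz2-rich cells gave 518308 UMIs and Lyz2-poor cells 215919. It therefore favours genes high in Lyz2-rich cells, such as Ccr2 (61 UMIs in Lyz2-rich and 1 in Lyz2-poor cells) and Cx3cr1 (164 and 2). Of 16 immediate early and stress genes 7 were lower and 0 higher (median -0.68), Nr4a1, Egr1, Junb, Ier2, Atf3, Zfp36 and Btg2. Heme and iron genes went both ways, with 3 of 15 higher (Ftl1, Slc11a1, Spic) and 4 lower (Hmox1, Slc40a1, Trf, Hfe).

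Against all other cells, the gene with the highest ratio among those of 100 CPM or more was Ccl8, a monocyte-attracting chemokine, but its 82 UMIs came from 4 cells. C1qc, C1qb and C1qa followed, chosen by the rule. Gdf15, a stress-induced cytokine, stood at 161 CPM against 0.764 in other cells (21 of 103 cells), Pla2g2d at 482 against 4.27, Fcna at 133 against 1.20 and Fcgr3, a low-affinity antibody receptor, at 113 against 1.18. Nr1h3, the liver X receptor alpha that senses oxysterols, stood at 251 against 2.94 CPM. Saa3, an acute phase protein, was among the 20 leading genes with 211 UMIs, of which 210 came from 1 WT vehicle cell. Over 4029 genes 7.2% were higher and 4.12% lower by 2-fold in C1q-high than in all other cells.

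A closer comparison was with 613 cDC2-type cells, defined by 0 C1q UMIs, under 20 Lyz2 UMIs, 2 or more UMIs of Cd209a, Clec10a and Clec4a4, and the same limits otherwise (median 6528 UMIs). Over 4042 genes 7.05% were higher and 3.44% lower by 2-fold in C1q-high cells (median log2 ratio -0.04). The lysosome and cathepsin list stood out in number, with 19 of 25 genes higher and 0 lower (median 1.62). The 19 include Lyz2, which was limited to under 20 UMIs in the cDC2-type cells, and its close copy Lyz1. Ctsd stood at 1032 against 71.2 CPM, Ctsb at 1731 against 169 and Psap, the precursor of lipid-degrading saposins, at 3167 against 508. Of 14 phagocytosis and scavenger receptor genes 8 were higher and 0 lower (median 1.32), with Axl at 143 against 1.02 CPM and Cd68 at 306 against 143. Mertk, which like Axl serves the uptake of dying cells, had 42 UMIs against 0 in the cDC2-type cells. Of 21 heme and iron genes 8 were higher (median 0.69), with the ferritin light chain Ftl1 at 9669 against 2343 CPM, and Hfe, a regulator of iron uptake, was lower at 95.3 against 197.

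Lipid handling genes were higher for 8 of 12 (median 1.16), led by Apoe at 8841 against 117 CPM. Of 18 macrophage transcription factors 8 were higher and 0 lower (median 0.40), among them Spic, Nr1h3, Cebpa and Irf8. Spi1, the gene of PU.1, did not pass 2-fold, at 338 against 445 CPM. Of 14 chemokine and cytokine genes 9 were higher and 2 lower (median 2.93), with Il18 at 204 against 17.3 CPM, Igf1 at 87.2 against 0.612, and Ccl5 and Il1b lower at 139 against 604 and 88.5 against 189. The antigen presentation genes were at like levels: of 10 MHC class II genes 0 were higher and 2 lower, H2-Oa and H2-Ob, the subunits of the inhibitor H2-O. H2-Aa stood at 5778 against 6216 CPM and Cd74, the invariant chain, at 13670.2 against 15922. Of 19 cell cycle genes 0 were higher and 3 lower, Top2a, Pclaf and Nusap1. Because the cells were chosen on RNA, these ratios carry no test.

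The counts of the 2 surface antibody tags took no part in the rule and were tested. The rule did limit Siglech, the gene of the Siglec-H protein, to at most 1 UMI, and cDC2-type cells had the same limit. The Siglec-H comparisons are therefore not independent of the choice of cells. CD11c is an integrin abundant on conventional dendritic cells and lower on red pulp macrophages. The median CD11c tag count of C1q-high cells was 3077 and 1234 with vehicle and 823 (822.5) and 1795 (1794.5) with panobinostat in leukemia, and 912 and 1553 with vehicle and panobinostat in WT. The cDC2-type cells of the same samples stood at 1941, 1972, 1939 (1938.5), 2173, 2156 and 2405 (2404.5). The C1q-high median was lower in 5 of 6 samples, with leukemia vehicle 1 the exception. In the WT samples, which alone had 10 or more C1q-high cells, the mean log2 ratio was -0.94, where the exact two-sided sign-flip permutation p is 0.5, the smallest that 2 samples allow. Over all 6 samples, a test added after the data were seen, it was -0.57 ± 0.71 (SD, n = 6; exact sign-flip permutation p = 0.125, adjusted p = 0.25 over 4 comparisons), so no difference was established.

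Within the C1q-high cells the CD11c tag was higher in Lyz2-poor than in Lyz2-rich cells. Its median was 2697 (quartiles 767 (766.5) and 4003) in Lyz2-poor and 902 (569 and 1789) in Lyz2-rich cells. It was 2066 in cDC2-type cells and 802 in the 49 cells with 20 or more Lyz2 UMIs and no C1q. Lyz2-poor cells also had higher medians of their own hashtag (980 and 582) and of the Siglec-H tag (267 and 239.5). The CD11c counts were not adjusted for this. The red pulp macrophage list without its C1q genes summed to 4076 (4075.6) CPM in Lyz2-poor and 3131 in Lyz2-rich cells, and with them to 5632 and 9388. Siglec-H, a lectin of plasmacytoid dendritic cells, had medians of 232 (231.5) to 268 in the C1q-high cells of the 6 samples and 234 (233.5) to 255 in cDC2-type cells. Both groups were held to the same limit on Siglech RNA, so the choice of cells favoured a like level. Siglec-H had a mean log2 ratio over 6 samples of 0.02 ± 0.11 (SD, n = 6; exact sign-flip permutation p = 0.75, adjusted p = 0.844). Taken as a share of the CD11c and Siglec-H tag UMIs, a measure that rises where CD11c falls, its log2 ratio in the WT samples was 0.83 against cDC2-type and 0.67 against all other cells, in place of -0.01 and -0.02.

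Of the hash-called cells of leukemia samples, C1q-high cells made up 0.0859 and 0.224% with vehicle and 0.128 and 0.282% with panobinostat. In WT they made up 0.649% with vehicle and 1.07% with panobinostat. These were 3, 3, 4, 6, 55 and 32 cells of 3494, 1340.0, 3121, 2131, 8470 and 2991. Every leukemia sample lay below both WT samples. The mean was 0.180% ± 0.089 (SD, n = 4) in leukemia and 0.860% ± 0.297 (SD, n = 2) in WT, a difference of -0.680 percentage points. The exact permutation p within treatment was 0.111, the smallest that its 9 arrangements allow (adjusted p = 0.222 over 2 comparisons). The pooled shares were 0.159% (exact 95% binomial interval 0.0907 to 0.257%) and 0.759% (0.608 to 0.936%), intervals that cover counting error alone. Fewer C1q-high cells and more of the other cells cannot be told apart from shares.

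**Figure D4:**
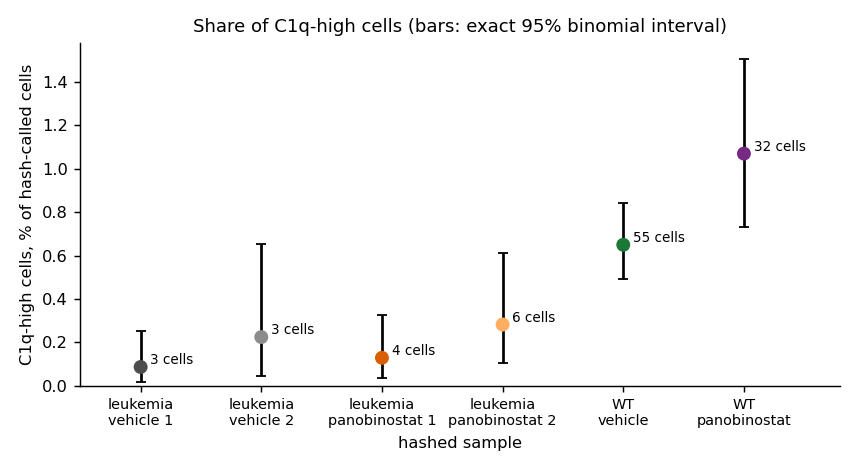
C1q-high cells as a percentage of hash-called cells (vertical axis) in each of the 6 hashed samples, with exact 95% binomial intervals as bars and the number of cells beside each point. The 4 leukemia points lie between 0.0859 and 0.282% and the WT points at 0.649 and 1.07%.

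Panobinostat samples held 0.493% ± 0.505 (SD, n = 3) C1q-high cells and vehicle samples 0.320% ± 0.294 (SD, n = 3). The difference of 0.17 percentage points had an exact permutation p of 0.333 within disease state (12 arrangements, smallest possible p 0.167). With so few arrangements the test could not have called a difference of any size, so no conclusion is drawn from it. The SDs mix leukemia and WT samples and so include the difference between them. In leukemia the shares of the vehicle and panobinostat samples overlapped, and in WT the panobinostat share was the higher. Without WT panobinostat the difference was -0.115.

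Gene levels between treatments could be compared by count only in WT, with 1 sample a group and no replicate check, because each leukemia sample had under 10 C1q-high cells. Of 1460 genes with 50 or more UMIs, 11 (0.753%) were higher and 12 (0.822%) lower by 2-fold or more in WT panobinostat. The C1q genes were at like levels or slightly lower, with C1qa at a ratio of 0.898 (exact 95% counting interval 0.807 to 0.998), C1qb at 0.722 (0.647 to 0.804) and C1qc at 0.797 (0.691 to 0.919). Vcam1 had a ratio of 1.10 (0.852 to 1.42), Spic 1.06 (0.701 to 1.61) and Slc40a1 1.30 (0.899 to 1.88). Hmox1 was the marker past 2-fold, at 262 CPM in vehicle and 532 in panobinostat, a ratio of 2.03 (1.54 to 2.69). Without the cell with most Hmox1 UMIs in each sample its ratio was 1.81. In the leukemia samples Hmox1 stood at 67.3 and 37.2 CPM with vehicle and 0 and 459.6 with panobinostat, so the arms overlapped.

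The 11 genes higher by 2-fold in WT panobinostat were led by Cebpb and Dnajb1. Cebpb, a transcription factor of inflammatory and macrophage genes, stood at 54.1 CPM in vehicle and 156 in panobinostat (ratio 2.89, 1.62 to 5.35), and at 235 and 335 with vehicle and 458 and 17.0 with panobinostat in leukemia. Dnajb1, a heat shock co-chaperone, stood at 108 and 293 CPM in WT (ratio 2.71, 1.80 to 4.15). In leukemia Dnajb1 was at 33.6 and 74.5 CPM with vehicle and 196 and 170.2 with panobinostat, so the arms did not overlap, on 1, 2, 6 and 10 UMIs, and single cells held 66.7% and 80.0% of the UMIs of the panobinostat samples. Hsph1, another heat shock protein, had a ratio of 2.04 (1.26 to 3.34) in WT and Mt1, a metal-binding metallothionein, 2.14 (1.66 to 2.79). Without the top cell of each sample these ratios were 1.88 and 1.60, and Stub1, a chaperone-linked ubiquitin ligase at 2.02, came to 1.95. Fam46a, Ogfrl1, Lims1, Frmd4b and H2-M2 were the other genes past 2-fold, at 2.08 to 2.53.

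Lower in WT panobinostat were Cxcl9, at 695 CPM in vehicle and 156 in panobinostat (ratio 0.225, 0.157 to 0.316), Emp3 (0.235), Cst7 (0.26), an inhibitor of cathepsins, Zfand6 (0.445), Adamdec1 (0.468) and Ccl5, a T cell attracting chemokine (0.485, 0.283 to 0.803). Cxcl9 in leukemia stood at 369.98 and 37.2 CPM with vehicle and 32.7 and 17.0 with panobinostat, on 11, 1, 1 and 1 UMIs. Without barcodes that held markers of other cells, Adamdec1 had a log2 ratio of -0.37 in place of -1.07, Emp3 -1.04 in place of -2.05 and Hmox1 0.70 in place of 1.02. Adamdec1 also fell short of 2-fold in Lyz2-rich cells alone (-0.65), at a hashtag ratio of 10 (-0.96) and without cells of more than 50 Hbb-bs UMIs (-0.98). Among Lyz2-rich cells alone the log2 ratio of Mt1 was 0.25 in place of 1.10, that of Hmox1 1.81 and that of Ccl5 -0.12 in place of -1.02. The 4 haemoglobin genes Hba-a1, Hba-a2, Hbb-bs and Hbb-bt were also lower, with Hba-a1 at 0.439 (0.390 to 0.493). The erythroid markers summed to 16656 CPM in WT vehicle and 6650.1 in WT panobinostat, and their part in the result was not tested beyond leaving out the cells with more than 50 Hbb-bs UMIs, which gave Hba-a1 a log2 ratio of -0.57. The last 2, Saa3 and Ccl6, had 99.5% and 94.1% of their WT vehicle UMIs in 1 cell.

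**Figure D5:**
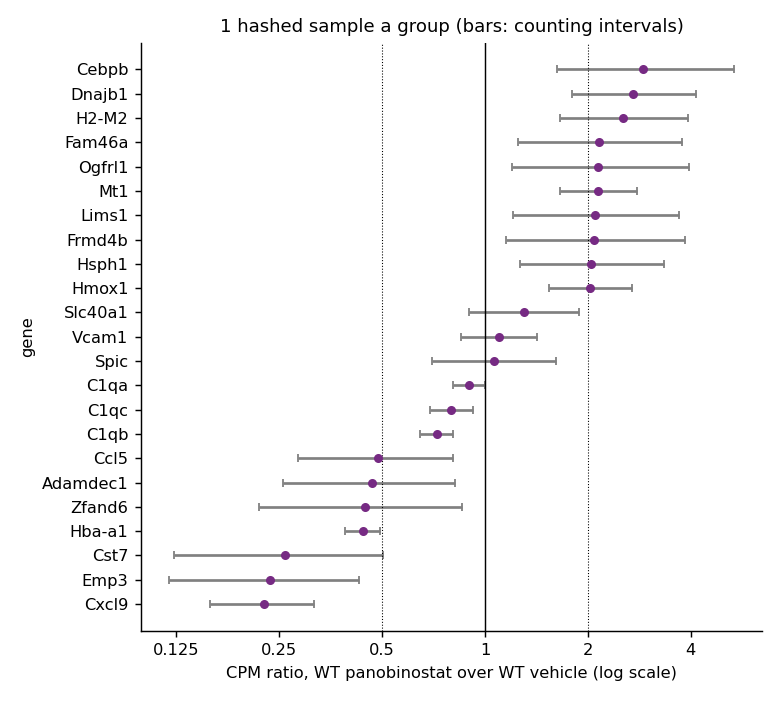
Ratio of CPM in WT panobinostat over WT vehicle (horizontal axis, log scale) for 23 genes, with exact 95% counting intervals as bars, a solid line at 1 and dotted lines at 0.5 and 2. Cebpb and Dnajb1 lie at 2.89 and 2.71, Cxcl9 at 0.225, and C1qa, Vcam1, Spic and Slc40a1 between the dotted lines.

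By list, 1 of 11 heme and iron genes (Hmox1), 1 of 11 macrophage transcription factors (Cebpb) and 1 of 7 genes known to rise with deacetylase inhibition (Mt1) were higher in WT panobinostat, and 3 of 11 chemokine and cytokine genes (Ccl5, Ccl6, Cxcl9) were lower. Ccl6 rested almost wholly on 1 cell, as given above. Of 23 lysosome and cathepsin genes, 7 complement genes, 9 MHC class II genes, 6 interferon-stimulated genes and 16 immediate early and stress genes, 0 passed 2-fold in either direction. Over all 1460 genes only 0.753% were higher and 0.822% lower, so a count of 0 in lists this short is no result about them. The histone deacetylase genes themselves had 0 of 11 members with enough UMIs.

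A model over all 6 hashed samples was added after the data were seen, in spite of the 3 to 6 cells behind each leukemia sample. edgeR's quasi-likelihood test of 637 genes called 0 genes (0%) between panobinostat and vehicle and 0 (0%) between leukemia and WT at an adjusted p of 0.05. At an unadjusted p under 0.05 there were 11 and 19 genes by edgeR and 13 and 14 by DESeq2, which also called 0. Leaving out either WT sample left 1 WT sample, which the disease term takes up. The panobinostat effect then rested on the leukemia samples alone, so these 2 fits are not separate checks. The genes that stood out were the same in both, with Lyz2, Fabp5, Cd63, Fth1 and H2-M2 lower and Plac8 and Lsp1 higher. Fabp5, for example, had log2 fold changes of -3.79 without WT vehicle and -3.73 without WT panobinostat. For leukemia against WT, Lyz1 was called lower without leukemia vehicle 1, and H2-M2 higher without WT panobinostat. The test of whether the panobinostat effect differs between leukemia and WT called 1 of 876 genes (0.114%), H2-M2, with a log2 difference of -5.37 (edgeR adjusted p = 8.77e-05). In leukemia H2-M2 stood at 2254 (2253.5) and 633 CPM with vehicle and 131 and 68.1 with panobinostat, and in WT at 105 and 266, and single cells held 44.8% and 100% of the UMIs of the leukemia vehicle samples. H2-M2 was not called when cells were thinned to 2000 UMIs, when the hashtag ratio was raised to 10, or when C1q was required relative to each cell's gene UMIs.

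Within the leukemia samples alone, edgeR called 5 of 390 genes tested, all lower with panobinostat: Lyz2 (log2 fold change -1.69, adjusted p = 0.00277), Fabp5 (-3.73, 0.00705), Cd63 (-3.29, 0.0152), Fth1 (-1.01, 0.0195) and H2-M2 (-3.97, 0.0207). Lyz2 stood at 21964 and 27599 CPM with vehicle and 9424 and 6775.0 with panobinostat in leukemia, and at 22297 and 15724 in WT. Single cells held 45.5 and 64.1% of the Lyz2 UMIs of the leukemia vehicle samples. In the leukemia panobinostat samples they held 68.4 and 51.5%. Lyz2, Fabp5, Cd63 and H2-M2 were also higher by 2-fold in Lyz2-rich than in Lyz2-poor cells, and Lyz2-rich cells were 3 of 3 and 2 of 3 with vehicle and 4 of 4 and 2 of 6 with panobinostat. The part of that makeup in the 5 calls was not tested.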

How the data were processed

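The 3 libraries (gene expression, hashtags and surface antibody tags) came from 1 capture of pooled cells and share its barcodes. The values deposited by the authors are UMI counts per feature and barcode, not normalized. Cell Ranger 3.1.0, Seurat 3.1.0 and the mm10 genome are named in the submitters' processing notes. All value columns used were matched to the labels (0 unmatched), and hashed samples were taken from the hashtag feature names. Labels do not say that these are separate animals, so p-values measure the spread between hashed samples, which may be technical.

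The members and gene lists were chosen with earlier results of these data known. The division by Lyz2 (at most 5 UMIs against more), the 2-fold rule and the minimum of 50 UMIs were set after the data had been seen. Counts were summed over members per hashed sample and divided by their total (CPM). A gene entered a comparison of cell groups when the mean of its CPM values was worth 20 or more UMIs in the members, and list medians add 0.5 UMI to each count. The test designed for panobinostat and disease required 10 or more members per hashed sample, which no leukemia sample reached, so WT ratios carry exact conditional intervals at 95% and no p. edgeR 4.0.16 over all 6 samples (quasi-likelihood, TMM, filterByExpr, Benjamini-Hochberg at 0.05) and DESeq2 1.42.0 were added. Intervals cover counting error only. Named genes were the markers, every called gene, up to 4 abundant members of each list and the 20 leading genes of 100 CPM or more. Genes of the Lyz2 division and other examples were named after their values had been seen.

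The hashtag ratio of 5 was used against barcodes of cells from different samples, but complete removal was not shown. At a ratio of 10, 73 of the 103 cells were left. No doublet caller was run, so pairs of cells from 1 sample remain, and an alternative left out barcodes with markers of other cells. Of 527 genes listed, 524 were in the file. Gene positions are from GENCODE vM21 (GRCm38) and promoters from RefSeq (GRCm38.p6). The edgeR step was tested on simulated data. Some items measured are not reported here.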

Additional observations from a re-analysis of the deposited data

Results flagged for a closer look

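Hmox1 in leukemia panobinostat 2 stood at 459.61 CPM, far from the other 3 leukemia samples (67.3, 37.2 and 0 CPM), by Dixon's ratio of the gap to the range. Chance marks about 1 in 20 groups this way, and 14 values were looked at. That sample held 4 Lyz2-poor cells of 6, and the part of this makeup in the value was not tested.

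The 45 barcodes that passed the gene part of the rule without 1 leading hashtag (30.4% of 148, exact 95% binomial interval 23.1 to 38.5%) entered no comparison, and 10 of them held at most 5 Lyz2 UMIs. Over all barcodes past the gene and mitochondrial filters, 41.6% had no leading hashtag.

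The panobinostat effect on H2-M2 differed between leukemia and WT by -5.37 on the log2 scale (edgeR adjusted p = 8.77e-05). The gene was lower in both leukemia panobinostat samples than in both leukemia vehicle samples, and higher in WT panobinostat than in WT vehicle. It had UMIs in 25 of the 103 cells.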

How the results depend on the processing

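Of 160 recomputed values of the comparisons, 122 kept their direction and side of the threshold (counts, a like size), 27 moved and 11 reversed. The exact permutation tests of shares had smallest possible p values of 0.167 (panobinostat) and 0.111 (leukemia), too large to pass the threshold. The sign-flip tests of antibody tags on 2 WT samples, with a smallest p of 0.5, could not pass it either. For these tests a kept side was fixed in advance, and only a kept direction is informative. Of 221 WT ratios of single genes, 23 moved outside their counting interval. For the 17 named genes past 2-fold, 31 of 177 alternative ratios fell short of 2-fold and 0 changed sign. The 221 and the 177 include the settings of 20 and 100 UMIs. Those minimums choose genes and leave each ratio as it was, so their ratios could not move. The cause of each change was not tested, except that thinned cells and higher minimums leave fewer genes. The WT count of 11 higher genes was 7 without the top cell of each gene, 6 with cells thinned to 2000 UMIs, 4 with 100 or more UMIs and 104 with 20 or more. The count of 12 lower genes was 6, 7 and 139 under the last 3, and 23 with C1q taken relative to gene UMIs and 23 in Lyz2-rich cells alone. The UMI minimums, the top-cell and Lyz2-rich settings and every fit over all 6 samples were chosen after seeing the data.

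The edgeR counts over 6 samples were 4 lower with panobinostat and 6 lower in leukemia without a filter on low counts, 5 lower with panobinostat in the leukemia samples alone, and 1 lower in leukemia without barcodes of mixed markers (Pla2g2d). Leaving out each leukemia sample gave 0 genes with panobinostat, and 0 to 1 lower and 0 higher in leukemia. Fits without a WT sample take the panobinostat effect from the leukemia samples alone, and their genes are named above. The interaction gave 3 lower genes with 16 or more C1q UMIs, 3 lower and 1 higher with RLE size factors, 2 lower with at most 5% mitochondrial UMIs, 2 higher and 1 lower (H2-M2) without mixed barcodes, and 0 lower with C1q relative to gene UMIs, thinned cells or a hashtag ratio of 10.

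The Siglec-H log2 ratios, near 0, changed sign. Against other cells (-0.02) they were 0.0189 with 16 or more C1q UMIs, 0.00657 with a hashtag ratio of 10 and 0.67 as a share of antibody UMIs. Against cDC2-type cells (-0.01) these were 0.0288, 0.0223 and 0.83, with 0.0178 over all 6 samples and 0.00707 at 5% mitochondrial UMIs. Leaving out each WT sample gave -0.122 to 0.0823 and -0.106 to 0.0852. The panobinostat difference in share ran from -0.115 (without WT panobinostat) to 0.356 percentage points when each sample was left out.

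With the leukemia number as a replicate block, edgeR called 0 genes (smallest adjusted p = 0.0791, 19 genes at an unadjusted p under 0.05). Deviations of same-numbered leukemia samples correlated at 0.17 (2 pairs), so the numbers were not shown to pair the samples. The leukemia values rest on 3 to 6 cells a sample.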
